A study of Mus musculus with 10 samples.

Results

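Pontin-rich windows away from gene starts are the 1 kb stretches of the mouse autosomes where a Pontin ChIP-seq library held many reads, a GFP ChIP-seq library held few, and no annotated gene began nearby. The genome (NCBIM37) was cut into 1 kb windows from the first base of each chromosome, and reads were counted by their midpoint, with 1 read kept per position and strand. A window was taken if it held at least 50 Pontin reads, at least 1 GFP read and a Pontin to GFP ratio of at least 3 after scaling to the reads of each library (RPM), and if its centre lay more than 2.5 kb from every gene start. This rule kept 99 windows of 2318996 autosomal windows away from gene starts (0.00427%), and of 2472353 autosomal windows in all. The same read limits kept 410 of 153357 windows near gene starts (0.267%). The windows were thus chosen by their Pontin and GFP reads, so those counts and ratios are a description of the choice, with no test.

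Both ChIP libraries came from untreated ZHBTc4 ES cells, a mouse embryonic stem cell line in which tetracycline (Tc) shuts off Oct4, and GFP antibody served as the control. There was 1 library per antibody. The study also sequenced mRNA from Pontinf/f; CreER ES cells, 1 library each for WT (untreated), OHT 3D and OHT 4D (3 and 4 days after 4-hydroxytamoxifen, which activates Cre and deletes Pontin), and from ZHBTc4 ES cells, 1 library for Tc 2D (2 days after Tc, Oct4 depleted) and 2 libraries 4 days after infection with control pLKO lentivirus. WT and Tc 2D were thus different cell lines, so line and Oct4 loss cannot be told apart in that comparison.

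Pontin (gene Ruvbl1) is an ATPase that works as a partner of Reptin in several chromatin complexes, among them the TIP60 histone acetyltransferase complex and the INO80 and SRCAP remodellers. It does not read a DNA sequence by itself, and ChIP recovers it where it sits on chromatin with such complexes or other partners. The paper reported that Pontin bound Oct4 directly and that its recruitment to the Oct4 target loci tested needed Oct4. DNA away from annotated gene starts may hold enhancers, alternative promoters, small RNA genes or unannotated CpG islands.

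The sequences below lie at the maximum of Pontin fragment coverage of 5 windows, on the forward strand of NCBIM37, and are shown for the reason given with each. CpG dinucleotides are in capitals. The first comes from the window with the highest ratio and the second from the window with the most Pontin reads. The third belongs to the only window whose nearest gene is in the list of pluripotency genes. The fourth lies in a pair of touching windows, and the last comes from the group of windows upstream of Chd2.
Gpr44 chr19:11015419-11015578: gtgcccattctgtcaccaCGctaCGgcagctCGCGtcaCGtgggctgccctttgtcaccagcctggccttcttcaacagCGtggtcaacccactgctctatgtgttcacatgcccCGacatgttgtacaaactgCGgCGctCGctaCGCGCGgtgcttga
Tmbim6 chr15:99251564-99251723: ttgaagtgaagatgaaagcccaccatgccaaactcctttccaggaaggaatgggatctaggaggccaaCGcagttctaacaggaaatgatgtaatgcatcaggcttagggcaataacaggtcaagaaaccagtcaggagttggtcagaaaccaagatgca
Sox2 chr3:34694419-34694578: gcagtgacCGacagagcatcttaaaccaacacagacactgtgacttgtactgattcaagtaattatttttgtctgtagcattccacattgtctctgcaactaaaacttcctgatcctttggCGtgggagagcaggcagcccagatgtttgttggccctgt
Prss16 chr13:22112958-22113117: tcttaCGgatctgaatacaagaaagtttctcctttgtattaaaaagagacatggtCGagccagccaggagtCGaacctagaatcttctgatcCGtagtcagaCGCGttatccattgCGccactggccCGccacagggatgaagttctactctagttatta
Chd2 chr7:80763140-80763299: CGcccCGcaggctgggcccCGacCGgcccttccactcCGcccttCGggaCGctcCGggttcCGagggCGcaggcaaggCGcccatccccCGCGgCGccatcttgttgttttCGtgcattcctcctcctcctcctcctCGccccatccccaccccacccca

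These 160-base stretches held 13, 1, 2, 8 and 16 CpG dinucleotides, in the order printed. The Gpr44 stretch lay in a coding exon of that gene, and the other 4 overlapped no annotated exon. A sixth sequence is printed for its motif, since it holds the single match to the octamer ATGCAAAT, the letters bound by POU factors such as Oct4, in all 99 windows. The match, in capitals on the opposite strand, lay in an intron of Mta3, and the centre of the printed stretch was 343 bases from the Pontin maximum of its window.
Mta3 chr17:84128566-84128625: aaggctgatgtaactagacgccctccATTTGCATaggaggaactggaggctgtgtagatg

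The windows were barely above the read limit. Of 99 windows, 36 held 50 or 51 Pontin reads, 69 held 50 to 53, and 5 held 60 or more. The median was 52 Pontin reads (range 50 to 77) and 5 GFP reads (range 1 to 8). Over the 1966134 windows away from gene starts that had reads in both libraries and no unknown base, the medians were 15 Pontin and 6 GFP reads. The ratio ran from 3.03 to 20.5 with a median of 4.02. In this assay both mates of a pair are listed, so a median of 31 Pontin fragments and 3 GFP fragments stood behind these counts.

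**Figure D1:**
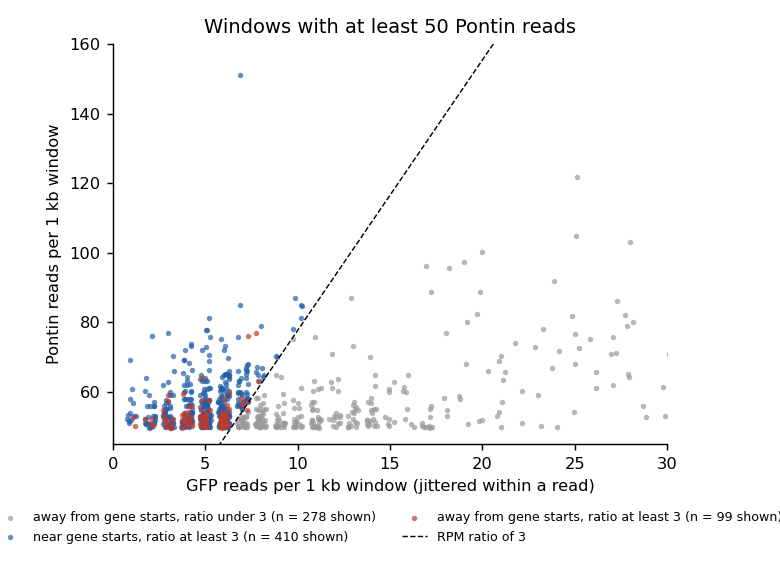
Pontin reads (vertical axis) against GFP reads (horizontal axis) per 1 kb window for autosomal windows with at least 50 Pontin reads, up to 160 Pontin and 30 GFP reads, with a dashed line at a ratio of 3. The 99 windows away from gene starts sit between 50 and 77 Pontin reads, among the 410 windows near gene starts, which reach 151.

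Counting error was wide at this depth. Exact (Clopper-Pearson) 95% intervals are given below with single ratios as a measure of precision, not as a test, since the ratios chose the windows. Both mates of a pair are counted, so the intervals are narrower than fragments would give. By reads the interval lay above 3 in 2 of 99 windows, and by fragments in 0. It lay above 1 in 99 windows by reads and in 91 by fragments. They cover counting error only and say nothing of the spread between cultures, which 1 library per antibody does not give. The 3 windows just inside the ratio limit had 55, 63 and 56 Pontin reads against 7, 8 and 7 GFP reads (ratios 3.03, 3.04 and 3.09). Those just outside it had 54, 53 and 53 Pontin reads against 7 GFP reads each (ratios 2.98, 2.92 and 2.92).

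Another 397 windows away from gene starts held at least 50 Pontin reads with a ratio under 3. Their median was 57 Pontin and 16 GFP reads, and only 70.5% of their Pontin reads had the highest mapping quality of 42, compared with 98.7% in the 99 windows. Repeats of a position made up 34% of their Pontin reads as deposited, and 6.36% in the 99 windows. Over all windows away from gene starts, these values were 98.3% and 10.1%. Pooled over reads, the Pontin-rich windows therefore differed from the read-dense windows in mapping quality, which the rule did not use, and in the share of repeated positions, which it removed before counting. The read-dense windows ran up to 1644 Pontin reads, so the deepest of them weigh most in their shares.

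The step at the window edges follows from the rule, which asked for many Pontin and few GFP reads in exactly that 1 kb. Each mate is counted by its own midpoint, so a fragment across an edge adds reads to both windows. The touching windows are thus not free of the rule, and only windows further out carry values that it did not use. In the windows themselves the mean was 53.4 Pontin and 4.88 GFP reads. In the touching windows it was 27.6 Pontin and 8.35 GFP reads, a pooled ratio of 1.28. The next window on each side gave 23 Pontin and 8.16 GFP reads, a ratio of 1.09, and those 11 to 50 kb away gave a ratio of 1.06. All windows away from gene starts had 15.8 Pontin and 6.36 GFP reads, a ratio of 0.962. The 410 windows near gene starts had the same form, with a ratio of 1.3 in the touching windows and 1.02 at 11 to 50 kb. The low GFP count in the windows, below that of the flanks, is part of the rule as well.

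**Figure D2:**
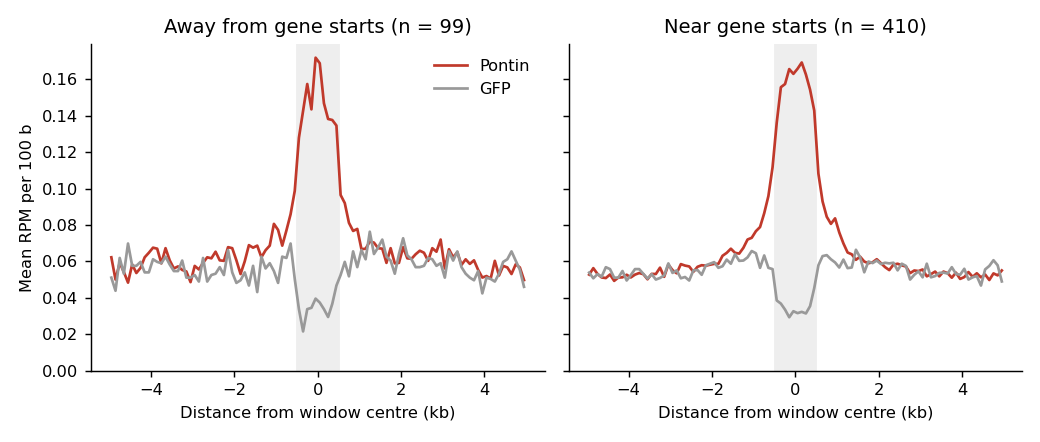
Mean RPM per 100 b (vertical axis) by distance from the window centre in kb (horizontal axis) for the 99 windows away from gene starts (left) and the 410 near gene starts (right), Pontin in red and GFP in grey, with the 1 kb window shaded. Pontin stands above GFP in and just beside the shaded window in both sets, GFP dips inside the shaded window only, and both libraries run close together from about the second kb outwards.

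Joining touching windows gave 98 regions, 1 of them a pair. In 94 windows both neighbours held fewer than 50 Pontin reads, and 19 windows had a neighbour with at least 40. The pair lay on chromosome 13 (chr13:22112001-22114000), outside annotated genes and nearest to Prss16, a serine protease of the thymus. Its windows held 51 and 52 Pontin reads against 5 and 6 GFP reads. Their boundary falls inside the Prss16 sequence printed above.

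The only other close group was upstream of Chd2, which encodes a chromodomain helicase that remodels nucleosomes. There 3 windows stood 65.9, 76.9 and 85.9 kb from the Chd2 start, outside genes, with 53, 54 and 54 Pontin reads and 5, 5 and 6 GFP reads. The middle window was CpG-rich, with 65.2% GC and 90 CpG dinucleotides. With all reads kept it held 54 Pontin and 9 GFP reads, a ratio of 2.53, and was 1 of 5 windows of the 99 that fell under 3 (with those nearest Arid2, Nipbl, BC032203 and Hmcn2). The windows on its sides were unlike it, with 37.9% GC and 19 CpG, and 50.9% GC and 18 CpG.

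**Figure D3:**
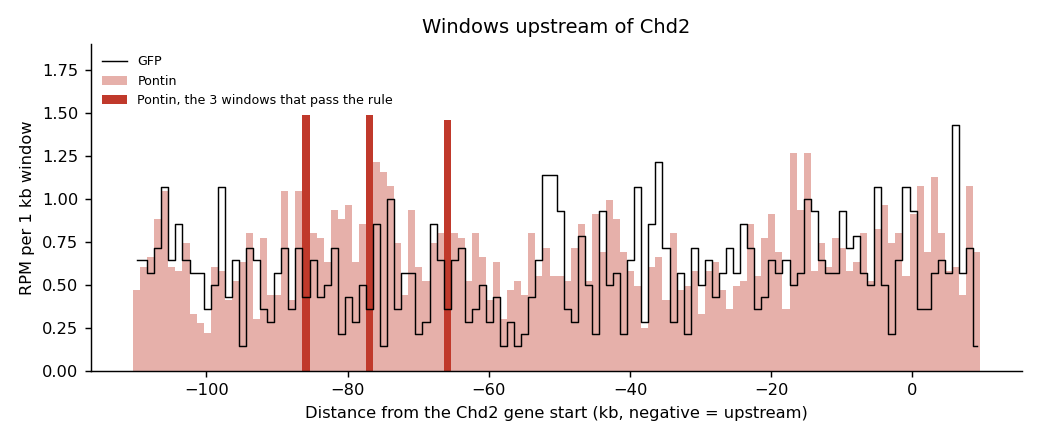
RPM per 1 kb window (vertical axis) against distance from the Chd2 gene start in kb (horizontal axis, negative values upstream), Pontin as bars and GFP as a black line. The 3 windows that pass the rule, in dark red, stand 65.9, 76.9 and 85.9 kb upstream, and each has a Pontin signal above that of its direct neighbours.

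The highest ratio belonged to chr19:11015001-11016000, in Gpr44, a receptor for prostaglandin D. It held 53 Pontin reads and 1 GFP read, a ratio of 20.5 (95% interval 3.52 to 823). Next came chr4:147189001-147190000, 5.61 kb upstream of Gm13157, with 50 Pontin reads and 1 GFP read (ratio 19.3, interval 3.31 to 778). With a single GFP read the upper bound is set by that read, and by fragments neither interval lay above 3. Before repeats of a position were removed, the Gm13157 window held 76 Pontin and 6 GFP reads, a ratio of 5.34, and the Gpr44 window 57 and 1, a ratio of 24.1. The third and the fourth, in Bai2 (an adhesion receptor) and upstream of Btn2a2 (a butyrophilin), each held 52 Pontin and 2 GFP reads, a ratio of 10. Upstream of Chga, which encodes the secretory granule protein chromogranin A, 51 Pontin and 2 GFP reads gave 9.85, and upstream of Sh3tc1, 50 and 2 reads gave 9.65.

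The ratios after these lay close together. The window upstream of Prdm10, a zinc finger gene, held 59 Pontin and 3 GFP reads (ratio 7.59). In Acer2, an alkaline ceramidase, 57 and 3 reads gave 7.34. A window 116 kb upstream of Arid2, a subunit of the PBAF remodeller, held 55 and 3 reads (ratio 7.08), but 63 and 23 before repeats of a position were removed (ratio 1.16), and 1 in Nme7 held 53 and 3 reads (ratio 6.82). The 95% intervals of neighbouring windows in this order overlapped, so counting error does not separate them.

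The windows with the most Pontin reads were mostly others, with Prdm10 on both lists. The first, chr15:99251001-99252000, lay outside genes, 28.2 kb from Tmbim6, a membrane protein that inhibits cell death, and held 77 Pontin and 8 GFP reads (ratio 3.72). The second, chr19:46131001-46132000, held 76 and 7 reads (ratio 4.19) and covered an alternative transcript start of Pprc1, a coactivator of genes for mitochondrial biogenesis. A window 53.2 kb upstream of Vwa3b held 64 and 5 reads, and 1 in Papola, the nuclear poly(A) polymerase, held 63 and 8 reads. The window in Zfp746 held 60 and 6 reads. After the Prdm10 window above, and with as many Pontin reads, came the window 146 kb downstream of Sox2. Windows upstream of Gclc, in Sult6b1, in Stat5b and in Cacna1a held 58 Pontin reads each, against 5, 7, 6 and 5 GFP reads.

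The Sox2 window, chr3:34694001-34695000, held 59 Pontin and 4 GFP reads, a ratio of 5.7 (95% interval 2.11 to 21.6), and by fragments 34 against 2. Sox2 is a core pluripotency factor that binds DNA beside Oct4. The window lay outside genes, with the nearest transcript start, of Sox2ot, 130 kb away. Of 22 autosomal pluripotency genes, Sox2 was the 1 with a window as nearest or host gene. Dppa5a had its closest window at 114 kb. Over all 21418 autosomal protein-coding genes, 111 (0.518%) were nearest to a window or held one.

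None of the other fixed lists had a gene with such a window. These were Lefty1, Otx2, Rif1 and Mycn, which were among the loci the study tested by ChIP or reporter, 8 Nodal and Lefty genes, 15 primitive endoderm genes, 12 trophectoderm genes, 28 genes of Pontin complexes, 11 polycomb genes and 13 genes of chromatin and DNA methylation. Within 50 kb of a window stood 1 gene of these lists, Ino80b, a subunit of the INO80 complex, at 37.1 kb. The share of all protein-coding genes within 50 kb was 0.85%.

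Of the loci that the study probed by ChIP and PCR, the 7 with primers in its methods were placed on the genome, and none was in a window of the set. The amplicon beside Mycn came closest, with 41 Pontin and 4 GFP reads in its window (ratio 3.96), but it lay 0.78 kb from a gene start. The amplicon beside Rif1 held 25 and 4 reads (ratio 2.41), that beside Otx2 held 23 and 5 (ratio 1.78), and that beside Lefty1 held 22 and 17 (ratio 0.5). The amplicons in the lincRNA loci linc1253, linc1356 and linc1562 held 21, 14 and 19 Pontin reads against 11, 2 and 5 GFP reads (ratios 0.737, 2.7 and 1.47). Most of these ratios rest on few GFP reads, so the order of the loci is uncertain. By ChIP and PCR, the paper reported Pontin at all of these loci except Mycn, and less of it there after Oct4 depletion. The place of Mycn here runs the other way. PCR of a short amplicon, repeated in independent experiments, and reads of a 1 kb window in 1 library are unlike measures.

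The windows were richer in G and C than most of the genome. Their median GC content was 50.8% (range 35.7 to 71.1%), compared with 41.7% over all windows away from gene starts and 57.8% in Pontin-rich windows near gene starts. It was 47.3% in the 1009 windows with 40 to 49 Pontin reads and a ratio of at least 3, and 48.1% in the 397 read-dense windows with a ratio under 3, with a median of 15 and 14 CpG dinucleotides. With all reads kept the median over the windows then chosen was 44.8%, and with a limit of 30 Pontin reads 44.4%. The 99 windows held a median of 22 CpG dinucleotides, against 7 in all windows away from gene starts and 64 in Pontin-rich windows near gene starts. CpG-rich windows, meaning GC of at least 50% and an observed to expected CpG ratio of at least 0.6, were 19 of 99 (19.2%), compared with 0.126% of all windows away from gene starts and 72.4% of Pontin-rich windows near them. Among windows away from gene starts with 40 to 49 Pontin reads and a ratio of at least 3, which are 1009 windows that just miss the read limit, the share was 8.72%, and in the 397 read-dense windows with a ratio under 3 it was 8.82%.

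**Figure D4:**
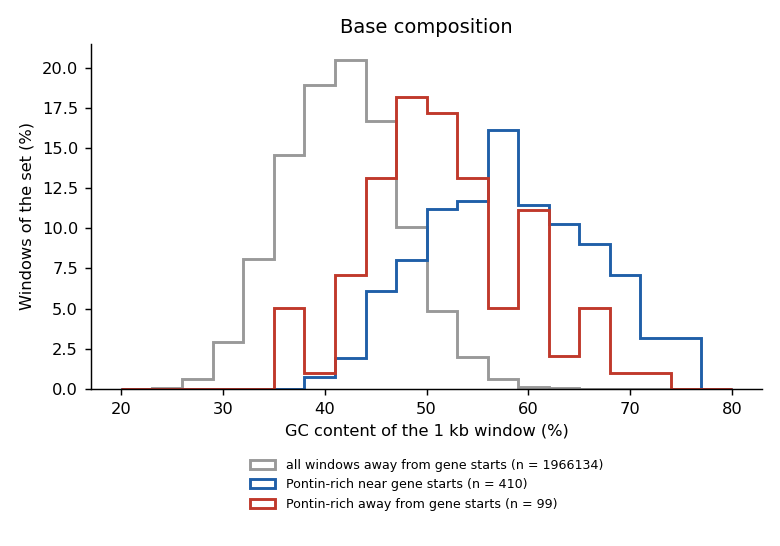
Share of windows (vertical axis, percent of each set) by GC content of the 1 kb window (horizontal axis, percent). The 99 windows away from gene starts, in red with a median of 50.8%, lie between all windows away from gene starts, in grey with a median of 41.7%, and Pontin-rich windows near gene starts, in blue with a median of 57.8%.

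The Pontin library as a whole gained on the GFP library with GC. Over all windows away from gene starts, the median ratio was 0.965 below 40% GC, 1.03 from 45 to 50%, 1.07 from 50 to 55% and 1.35 at 60% or more. The share of windows that passed the rule went the same way, from 6 of 756519 below 40% GC to 15 of 2899 at 60% or more (0.517%). The part of this library-wide slope in the choice of windows was not tested.

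By annotation, 49 of 99 windows (49.5%) had their centre in a gene, compared with 43.1% of all windows away from gene starts and 54.6% of those whose GC lay between the quartiles of the 99 windows. An exon overlapped 29 windows (29.3%), against 9.32% and 17.4%, but in the 397 read-dense windows with a ratio under 3 the share was 32%, and in the 1009 windows with 40 to 49 reads it was 21.1%. A coding exon overlapped 21 windows, and 9 of these had no transcript start within 1 kb. The median distance to the nearest gene start was 11.8 kb (range 2.58 to 238 kb), compared with 42.1 kb over all windows away from gene starts and 12.9 kb over the 397 read-dense windows. Gene starts were more than 100 kb away for 6 windows (6.06%), and for 27.5% of all. For the 1009 windows with 40 to 49 reads that share was 7.93%, and their median distance was 16.4 kb.

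Although no gene began within 2.5 kb, 16 of 99 windows (16.2%) lay within 1 kb of the start of an annotated transcript, that is, of an alternative or internal start. The share was 1.48% over all windows away from gene starts and 3.14% over those of like GC, and it was 13.9% over the 397 read-dense windows with a ratio under 3 and 9.32% over the 1009 with 40 to 49 reads. It was 4.27% when the limit was 30 Pontin reads and 5.29% when all reads were kept. The starts were in Pprc1, Brd3 (a bromodomain protein that binds acetylated histones), Papola, Slc15a4, Dleu2, Eef1a1 (translation elongation), Pef1, Tm7sf3, Tbcel, Apbb2, Prdm16, Best1, Lctl and Sult6b1, besides Mapre2 and Pcdhgc5. The Brd3 window held 57 Pontin and 7 GFP reads with 102 CpG dinucleotides, and the Eef1a1 window held 53 and 4 reads with 87.

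CpG-rich sequence was found in 8 of the 16 windows at such transcript starts and in 11 of the other 83. Those 11 were in Gpr44, Zfp286 and Prdm13, or outside genes, with Gclc, Chd2, Nipbl, Mga, Dync1h1, Gm17623, Gm10775 and Rpl30-ps6 as nearest genes. The window 3.84 kb upstream of Gclc, which encodes a subunit of the rate-limiting enzyme of glutathione synthesis, held 58 Pontin and 5 GFP reads and 82 CpG dinucleotides. The window 24.5 kb upstream of Mga, a partner of Max, held 51 and 5 reads and 95 CpG dinucleotides.

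Short motifs were searched on both strands, as letters only. The octamer ATGCAAAT was in 1 window (1.01%), compared with 7.8% of all windows away from gene starts and 3.98% of those of like GC. This share rests on 1 window, was 4.96% over the 1009 windows with 40 to 49 reads, and became 6.57% with a limit of 30 Pontin reads and 5.7% with all reads kept. The E-box CACGTG was in 25 windows (25.3%), against 9.55% and 15.1%, and in 25.4% of the Pontin-rich windows near gene starts. The Gpr44 sequence above holds it. AAGATGGCG, the core letters bound by Yy1, was in 4 windows (4.04%), against 0.7% and 1.46%, among them the Pprc1 window and the middle Chd2 window, whose printed sequence holds it on the opposite strand. CCGGAAGT, bound by ETS factors, was in 4 windows, against 0.6% and 1.18% of the comparison sets. GGGGCGGGG was in 8.08%, against 1.56% and 3.72%. In the sets most like the 99 windows, the 1009 with 40 to 49 reads and the 397 read-dense with a ratio under 3, the shares were 8.23% and 7.81% for GGGGCGGGG. They were 18.8% and 17.6% for CACGTG, 1.29% and 1.26% for AAGATGGCG, and 2.87% and 3.53% for CCGGAAGT. In the Pontin-rich windows near gene starts the shares were 28.3% for GGGGCGGGG, 13.4% for AAGATGGCG, 13.2% for CCGGAAGT and 3.17% for the octamer, all above those of the 99 windows. The counts in the 99 windows are of 1 to 25 windows and move with GC.

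Other letters stood on both sides of the background. TGANTCA, bound by AP-1 factors, was in 29.3%, compared with 27.6% of all windows away from gene starts, CACACACAC in 19.2% against 19.5%, and TTGTNATG, letters of the joined Sox and Oct site, in 10.1% against 15.9% (11% of windows of like GC). In the Pontin-rich windows near gene starts these shares were lower, at 13.9%, 8.29% and 7.07%. TCAAGGTCA, bound by Esrrb, was in 1 window (1.01%, against 2.28%), that upstream of Prdm10. GCGCATGCG, bound by Nrf1, was in 3 windows (3.03%), against 0.139% of all windows away from gene starts and 0.334% of those of like GC, and against 1.19% and 1.01% of the 1009 and the 397 windows. AGGGGGCGC, part of the CTCF site, was in 3 (3.03%), against 0.162% and 0.426%, and 1.19% and 2.02% of the 1009 and the 397 windows, among them the window nearest Foxd3. GCGCATGCG and AGGGGGCGC were more frequent in the Pontin-rich windows near gene starts, at 6.1% and 4.15%. GTTCGANTC, letters of the internal promoter of tRNA genes, was in 2 windows (2.02%), against 0.46% of all windows away from gene starts, 0.991% of the 1009 and 1.76% of the 397 windows, and was added to the search after the sequences had been seen. It lies on the opposite strand of the Prss16 sequence printed above, and in the window nearest Nipbl.

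The 19 autosomes did not hold the windows evenly. Chromosome 4 held 14 (14.1%) with 6.17% of all windows away from gene starts, chromosome 9 held 7 (7.07%, against 5.21%), and chromosome 16 held 0 (3.92%). No comparison of chromosomes was made beyond these counts.

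In the mRNA libraries, Ruvbl1, the target of the OHT treatment, was looked at first. Its level was 198 CPM (gene counts scaled to library size) in WT. It was 33.3 and 50.9 CPM after OHT for 3 and 4 days, 85 after Tc, and 166 and 186 in the ZHBTc4 controls. Pou5f1, which encodes Oct4, had 301 CPM in WT, 21.1 after Tc, and 642 and 582 in the ZHBTc4 controls. In that 1 library Ruvbl1, not targeted by Tc, was lower as well, but WT was another line and the controls were normalized in another table. The paper, by immunoblot and quantitative RT-PCR, reported that Oct4 depletion did not significantly change Pontin protein or mRNA. WT, OHT 3D, OHT 4D and Tc 2D had 1 library each, and only the ZHBTc4 controls had 2, so no difference below comes with a p-value. A gene was counted as higher or lower where log2(CPM + 1) differed from WT by more than 0.58, which understates the change of low genes.

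The windows had 96 nearest protein-coding genes, of which 80 exceeded 1 CPM in some library of their table. Their median level in WT was 45.4 CPM, compared with 22.8 over all 12960 protein-coding genes that passed. At OHT 3D, 3 of 80 were higher (3.75%, background 6%) and 4 were lower (5%, background 5.9%). At OHT 4D, 3 were higher (3.75%, background 6.47%) and 9 were lower (11.3%, background 8.75%). The medians of the differences were -0.02 and -0.09, against -0.02 and -0.0017 over all genes. These shares were near the background. Of the nearest genes, 2 were higher (background 3.36%) and 1 was lower (background 2.12%) at both times.

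Those 2 were Foxd3, a forkhead factor of ES cells and neural crest, and Laptm5, a lysosomal membrane protein. Foxd3 had 8.67 CPM in WT and, by day of OHT, 18.4 and 17.5, a difference of 1.01 and 0.93 (log2). It was at 2.01 CPM at Tc 2D and at 26 ± 2.2 CPM (SD, n = 2) in the ZHBTc4 controls, above both OHT values. Its window, 7.51 kb downstream of the gene start, held 52 Pontin and 5 GFP reads. Laptm5 was at 122, 222 and 189 CPM, and its window, inside the gene, held 50 and 6 reads. The gene lower at both times was Nfe2l3, a bZIP factor, at 4.07, 1.67 and 1.93 CPM. Apobec3, a cytidine deaminase against retroviruses, had 141 CPM in WT and 91.6 on day 3 of OHT, while its 112 CPM on day 4 was within the limit.

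Of the 9 genes lower at OHT 4D, 5 were among the 1296 with the longest transcripts, and of all 1134 genes lower there, 432 were (38.1%). Mga had 203 CPM in WT, then 216 and 86.7 on days 3 and 4 of OHT, and Nipbl, the loader of cohesin, at 119, 158 and 60. Dync1h1, the dynein heavy chain, was at 474, 443 and 267, and Chd2 at 120, 119 and 69.9. Arid2, Prdm10, Sall1 and Klf9 were lower as well, and none of these 8 was lower at OHT 3D. The 9 lower genes had a median longest transcript of 8.82 kb, compared with 3.4 kb over the 80 genes. Over all tested genes, 33.3% of the 1296 longest (above 6.43 kb) were lower on day 4 of OHT, and on day 3 the share was 4.63%. After Tc the same long genes went the other way. Against WT their median difference was 0.35, compared with -0.05 over all genes, and 12.1% were lower, compared with 25.3%. Mga, Nipbl and Chd2 were higher than WT there (384, 198 and 194 CPM). In the ZHBTc4 controls they were at 282 ± 45.8, 146 ± 30.7 and 98.7 ± 11.3 CPM (SD, n = 2). For Mga and Nipbl that lies between WT and Tc 2D. The part of transcript length in these counts was not tested.

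Fibroblast markers moved with the OHT libraries. The 8 markers of feeder fibroblasts summed to 26.7 CPM in WT and to 317 and 349 CPM in the OHT libraries, where each of the 8 was higher. Their sum was 8.18 CPM after Tc, and 40.5 and 44 CPM in the ZHBTc4 controls. The 6 ES cell markers summed to 2217, 2085, 2347 and 418 CPM, and to 5270 and 4492 CPM in the ZHBTc4 controls, above WT. Zfp42, 1 of the 6, went against the sum, with 61.4 CPM in WT and 76.2 after Tc, and had 1210 and 914 CPM in the controls. In bulk samples, a change in the number of cells of a type and a change of RNA per cell cannot be told apart. The libraries do not show whether the fibroblast markers came from feeder cells or from the ES cells. The part of either in the results was not tested.

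At Tc 2D, 9 of 80 nearest genes were higher (11.3%, background 24.1%) and 29 were lower (36.3%, background 25.3%), with a median difference of -0.34 against -0.05 over all genes. Against the mean of both ZHBTc4 controls, which were normalized in another table, 10 were higher (12.5%, background 18.4%) and 23 lower (28.8%, background 28.4%). Against these controls the share of lower genes was thus at the background, without the excess seen against WT. The controls had also been infected with lentivirus and, by the paper, were sequenced on another Illumina model. Infection, sequencer and Oct4 loss cannot be told apart in that comparison. Sox2 was at 458 CPM in WT, 129 at Tc 2D and 540 ± 33.5 (SD, n = 2) in the ZHBTc4 controls, while after OHT it had 372 and 356 CPM, within the limit. Apobec3 was at 17.1 CPM at Tc 2D and 92.7 ± 8.22 (SD, n = 2) in the controls.

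Among the genes named for their windows, Chga was at 24.3 CPM in WT and 8.67 at Tc 2D, and Ldb1, a cofactor of LIM-domain factors, at 162 and 62.3. Pprc1 itself, the host of that window, was at 251 and 117 CPM. Mta3, a subunit of the NuRD complex and the host of the octamer, was at 174 CPM in WT and 55.5 at Tc 2D, but at 64.6 ± 28.6 (SD, n = 2) in the ZHBTc4 controls, close to the Tc 2D level. Bai2 was higher, at 3.93 CPM in WT and 20.1 at Tc 2D, with 13.8 ± 2.92 (SD, n = 2) in the controls, and Sh3tc1 was at 13.1 and 32.9. Gpr44, the host of the window with the highest ratio, was listed below 1 CPM in all of these libraries.

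**Figure D5:**
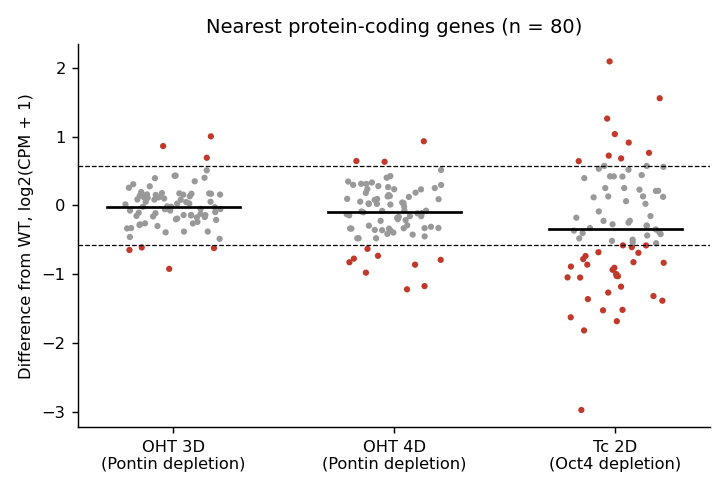
Difference from WT in log2(CPM + 1) (vertical axis) for the 80 nearest protein-coding genes in each depletion (horizontal axis), 1 point a gene, red beyond the dashed limits at 0.58 and -0.58, with the median as a bar. The medians are -0.02, -0.09 and -0.34, and 4, 9 and 29 genes lie below the lower limit, where 5.9%, 8.75% and 25.3% of all tested genes lie.

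For the 37 tested genes that hold a window, 3 were higher (8.11%, background 6%) and 0 lower (background 5.9%) on day 3 of OHT. On day 4, 2 were higher (5.41%, background 6.47%) and 1 lower (2.7%, background 8.75%). After Tc, 5 were higher (13.5%, background 24.1%) and 10 lower (27%, background 25.3%). The 3 comparisons share the WT library, so their values were not tested against each other.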

How the data were processed

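The members, gene lists and motifs were chosen with earlier results of these data known. The authors trimmed reads with cutadapt and aligned ChIP reads to NCBIM37 with Bowtie2, and the deposited lists give each read with its mapping quality as a score (5 to 42), with mates on separate lines. The lists held 40729076 Pontin and 17185883 GFP reads. Keeping 1 read per leftmost base and strand left 36317404 and 14024474, which set the scaling. Genes, transcripts and exons were those of GENCODE M1, an annotation of NCBIM37, since the Ensembl release the authors used is not given in the sources used here, and another release could move gene starts and so the set of windows. The mRNA values are CPM, which the authors made from TopHat alignments, HTSeq gene counts and TMM normalization in edgeR. Every nonzero value was a whole multiple of the lowest one within 0.05 reads (100% of values), which gives 17187595 to 18120429 reads per library in the first table. WT, OHT 3D, OHT 4D and Tc 2D had 1 library each, and the 2 ZHBTc4 controls were normalized in another table, so no count test was run.

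Windows were counted and annotated with pysam 0.24.0, scipy 1.17.1, pandas 2.3.3 and numpy 2.4.6 in Python 3.11.15, and the counting, motif and call steps were tested on simulated data. The simulated windows lay well above the read limit and had no mate pairs, so the simulation does not cover windows at the limit or paired reads. The motif GTTCGANTC and the comparison of long transcripts were added after the data had been seen. The text names the 10 windows with the highest ratio and the 10 with the most Pontin reads (11, given ties), windows beside the ratio limit, and windows whose nearest or host gene is in the lists. The Chd2, Prss16, Mta3 and CpG-rich windows, windows at transcript starts, and genes counted as higher or lower were named after their values were seen. The alternatives were other ways to count and scale reads, other limits, and other filters and controls for the genes. The linc1253 knockdown libraries were not used here.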

Additional observations from a re-analysis of the deposited data

Results flagged for a closer look

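Away from gene starts, 2 windows had at least 50 Pontin reads and no GFP read, and so fell outside the rule, which needs 1 GFP read for a ratio. Both lie on chromosome 13. The window chr13:43278001-43279000, 11.8 kb from the start of Tbc1d7, held 50 Pontin reads and 0 GFP reads. The window chr13:64183001-64184000, 7.01 kb from the start of Hsd17b3, also held 50 and 0. A count of 0 allows up to 3 reads, at which the ratio would be 6.44 for each. Their GC contents were 47.9% and 49.3%.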

How the results depend on the processing

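No paired analysis was possible because each ChIP and each depletion had 1 library and no result came from a test. The number of windows, 99 as reported, depended most on the read limit: it was 10512 with at least 30 Pontin reads, 0 with at least 100, and 0 with at least 50 fragments. All reads kept gave 719, the median ratio as scaling gave 172, at least 5 GFP reads gave 63, and a ratio of at least 4 gave 52. Regions followed, at 10319, 716, 170, 62 and 52 for the settings that left windows (30 reads, all reads, median scaling, 5 GFP reads, ratio of 4). Counting 5-prime ends gave 96 windows (91 of the 99 among them), mapping quality of at least 30 gave 97 (96 of the 99) and tiling from position 500 gave 98. A limit of 30 fragments, chosen after seeing the data, gave 110 windows, 62 of them among the 99.

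The share within 1 kb of a transcript start, 16.2%, was 5.29% with all reads, 4.27% with 30 reads and, by construction, 0% over 2.5 kb from transcript starts. The share inside a gene, 49.5%, was 39% in that last setting and 39.1% with 30 fragments. The octamer share, 1.01%, was 5.7% with all reads, 6.57% with 30 reads and 0% at a ratio of 4. The median GC, 50.8%, was 44.8% with all reads and 44.4% with 30 reads, and 49.2 to 52% in the other settings. Other causes of these shifts were not tested.

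With a log2 limit of 1, 1 of 80 nearest genes was higher at OHT 3D (background 1.88%) and 0 lower (0.934%), 0 higher (2.35%) and 2 lower (1.58%) at OHT 4D, and 4 higher (12.8%) and 15 lower (12.2%) at Tc 2D. Of 37 host genes, 0 were lower at OHT 3D (background 5.9%), 1 lower at OHT 4D (8.75%), and 5 higher (24.1%) and 10 lower (25.3%) at Tc 2D. Of 61 nearest genes within 50 kb, 4 were lower at OHT 4D (8.75%). The other counts stayed within 1.5 times the reported ones. Against the ZHBTc4 controls the lower share at Tc 2D was at the background (28.8% against 28.4%).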
